A study of Mus musculus with 6 samples.

Results

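The splicing factors and heterogeneous ribonucleoproteins (hnRNPs) described here are the genes whose symbol starts with Hnrnp, Srsf, Sf3a, Sf3b, Snrp or Prpf, together with Tra2a and Tra2b, older symbols included. This symbol rule found 49 of the 11138 named genes of the array: 13 hnRNP genes, 9 SR genes (Srsf genes and Tra2b), 5 genes of the SF3 complex, 12 Snrp genes and 10 Prpf genes. The RNA came from endothelial cells sorted from mice after tobacco smoke exposure and from control mice. Neither the tissue of origin nor the strain, age and sex of the mice was given. Each of the 6 arrays compared 2 RNA samples in 2 colours, with the smoke sample in channel 1. On 3 arrays the smoke sample had 1 week of exposure and the control an unstated duration, and the first of them is labelled as a dye reversal. On the other 3 the exposure lasted 6 weeks: the first used 1-week control, the second was the dye reversal of the first, and the third used 6-week control. The 6-week dye swap was averaged, which left 3 replicates at 1 week and 2 at 6 weeks. No label says whether the arrays hold separate animals or pools, so p-values refer to the spread between arrays, which may be technical.

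Splicing removes introns from pre-mRNA in the spliceosome, which is assembled from small nuclear ribonucleoprotein particles (snRNPs). The Snrp genes encode proteins of these particles, the SF3 genes encode the part of the U2 particle that binds the branch point, and the Prpf genes encode proteins of the tri-snRNP and of the later catalytic steps. SR proteins bind exons and mostly favour their inclusion, while hnRNPs coat nascent transcripts, often oppose inclusion and also serve in export, stability and translation of mRNA. In endothelium, regulated splicing is known from matrix proteins and growth factors, such as the fibronectin and VEGF-A transcripts.

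The values are log2 ratios of the 2 channels. No source states which channel is the numerator or whether the dye-reversed ratios had been turned, so a positive ratio is read as likely higher after smoke, because the labels put smoke into channel 1 throughout and name it ahead of control. All arrays kept their deposited sign. Nearly all genes were spotted in pairs, and spots are called agreeing here where no array showed a gap of 1 log2 unit or more between the spots of one probe. This held for 35 of the 49 genes and for 51.9% of all named genes. Intensities were not used, so neither signal over background nor the presence of endothelial transcripts could be checked. In bulk RNA, fewer cells of a type and less RNA per cell cannot be told apart.

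**Figure D1:**
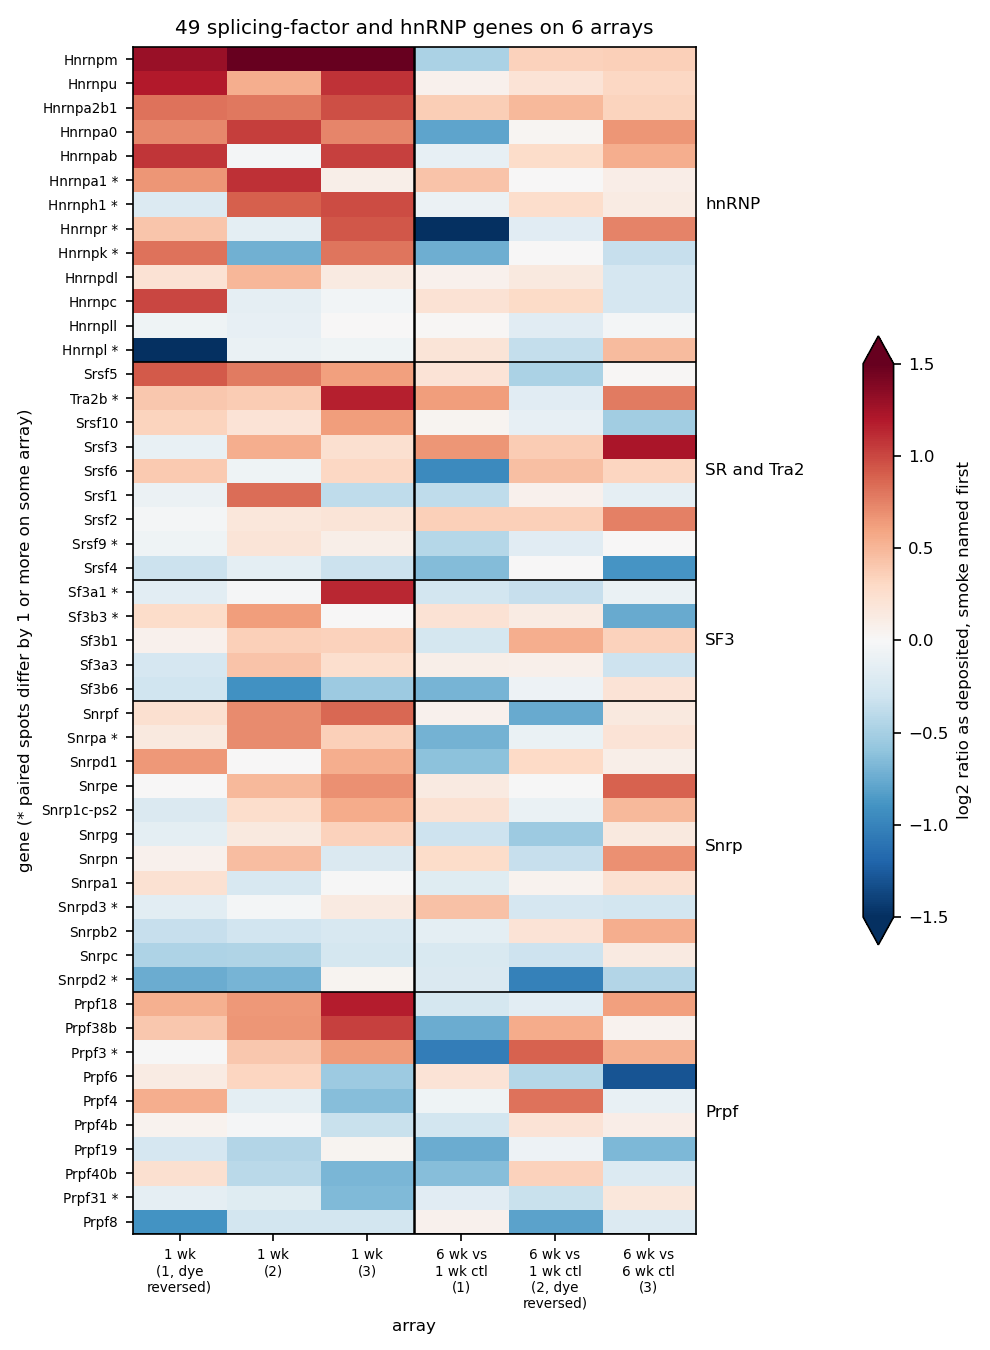
Log2 ratio (colour, smoke named first) of the 49 genes, in rows by family and ordered by their 1-week mean, on the 6 arrays in columns. The upper hnRNP rows are positive on the 1-week arrays (left of the line), with 1.65 for Hnrnpm as the highest single value, and mostly paler on the 6-week arrays. Colours saturate at 1.5 in either direction, and asterisks mark genes whose spots differed by 1 or more.

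After 1 week of smoke, hnRNP genes had positive log ratios as a family. Of the 13 measured, 11 had a positive mean and 2 a negative one, with a median of 0.56, against a median of -0.01 and a positive share of 48.9% over all named genes. The family median was 0.72 on the dye-reversed array, with 10 of 13 positive. It was 0.50 on the second array, where only 7 of 13 were positive, and 0.80 on the third, with 11 of 13. An unadjusted p under 0.05 in limma's test was reached by 5 hnRNP genes, all positive. Over all 49 genes it was reached by 12, of which 10 were positive and 2 negative, beside 6.65% of all 19242 tests in either direction, 3.53% positive and 3.12% negative. After Benjamini-Hochberg adjustment over all tests no gene passed: limma called 0 of the 49 and 0% of all tests, and the smallest adjusted p among the 49 was 0.358, for Hnrnpm.

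Restricted to the 5786 genes with agreeing spots, limma with its own adjustment called 4 of the 35 genes at 1 week, all positive, beside 1.76% of the genes in that fit. They were Hnrnpm, Hnrnpa2b1, Hnrnpu and Srsf5. This restriction favours genes measured evenly and adjusts over fewer tests. Limma also re-estimated the spread it borrows across genes from these genes alone, so the unadjusted p fell too. By limma it went from 0.000242 to 8.09e-06 for Hnrnpm and from 0.0016 to 0.000216 for Hnrnpa2b1. For Hnrnpu it went from 0.00345 to 0.00042 and for Srsf5 from 0.00325 to 0.000568. In that fit the number called was 0 without the third 1-week array, 1 without the first or the second, and 1 without the array against 6-week control. It was also 0 with both dye-reversed arrays turned, where limma called 0% of the genes.

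For 2 of these genes, Hnrnpm and Srsf5, the 150 bases upstream of a start listed in RefSeq's promoter table are shown because the genes were called. They are given 5′ to 3′ on the gene's strand, in build GRCm38.p6, at chr17:33685459-33685608 (minus strand) for Hnrnpm and chr12:80945349-80945498 (plus) for Srsf5. The window of Hnrnpm ends where RefSeq's span of the gene begins, and that of Srsf5 overlaps the first bases of its gene. The windows of Hnrnpu and Hnrnpa2b1 lie inside the RefSeq span of their gene, downstream of its 5′ end, and are not shown. Capitals mark matches on either strand to 6 textbook promoter motifs, which may overlap: TATAAA (the TATA box), CCAAT (bound by NF-Y), GGGCGG (the GC box), CCGGAAG (an ETS-type motif), TGACGT (the core of the cAMP response element) and CACGTG (the E box).
Hnrnpm: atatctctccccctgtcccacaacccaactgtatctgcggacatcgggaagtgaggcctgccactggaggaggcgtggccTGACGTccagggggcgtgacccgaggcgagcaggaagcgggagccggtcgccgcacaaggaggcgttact
Srsf5: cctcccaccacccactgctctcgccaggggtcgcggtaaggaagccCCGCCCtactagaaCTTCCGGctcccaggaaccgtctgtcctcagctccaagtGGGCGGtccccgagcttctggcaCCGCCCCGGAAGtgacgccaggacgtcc

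TGACGT was found in the window of Hnrnpm, and GGGCGG and CCGGAAG in that of Srsf5. Of all 32851 windows of this length in the table, 5.15% held TGACGT, 28.6% GGGCGG and 5.52% CCGGAAG. Of the 60 windows of the 45 splicing and hnRNP genes with an entry, some of which may also lie inside a gene, 10 held TGACGT, 29 GGGCGG and 10 CCGGAAG. The other letters were found in 22 of these 60 windows for CCAAT, 3 for TATAAA and 3 for CACGTG, beside 24.5%, 7.57% and 4.3% of all windows. A match is a description of the letters and not a bound site.

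Hnrnpm, which binds GU-rich stretches of pre-mRNA, had log2 ratios of 1.29, 1.65 and 1.51 on 1-week arrays 1 to 3. On the 6-week arrays 1 to 3 it was at -0.48, 0.34 and 0.36. All 1-week values lay above all 6-week values, and the dye swap against 1-week control disagreed in sign, with -0.48 on the array and 0.34 on its reversal. Its 1-week mean was 1.48 ± 0.17, a 2.79-fold ratio. Here and below, the SE is from limma's fit of all tests, where a gene's spread over 5 replicates is moderated by that of all features. In limma's separate fit of agreeing spots the adjusted p was 0.00585. Leaving out each array in turn in that fit gave adjusted p from 0.00749 to 0.0803, the latter without the third 1-week array.

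Hnrnpa2b1, a reader and carrier of RNA, stood at 0.82, 0.79 and 0.97 after 1 week and at 0.37, 0.49 and 0.33 after 6 weeks, so it was positive on all 6 arrays with no overlap between times. The 1-week mean was 0.86 ± 0.15, with an adjusted p of 0.0238 among agreeing spots by limma and of 0.0341 to 0.166 with each array left out in turn. Positive values on all 6 arrays were found for 3 of the 49 genes, Hnrnpa2b1, Hnrnpu and Hnrnpa1, beside 3.24% of all named genes, and negative values on all 6 for 0, beside 3.62%.

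Hnrnpu, also known as scaffold attachment factor A, ties nuclear RNA to chromatin. It was at 1.19, 0.54 and 1.08 after 1 week and at 0.07, 0.21 and 0.31 after 6 weeks. The 1-week mean of 0.94 ± 0.19 had an adjusted p of 0.0333 by limma among agreeing spots, and leaving out each array in turn gave 0.0417 to 0.219. Hnrnpa0, which binds AU-rich mRNA tails, was at 0.72, 1.04 and 0.73 after 1 week, and the 6-week values of -0.79, 0.03 and 0.66 all lay lower. Its mean of 0.83 ± 0.24 did not pass after adjustment.

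Hnrnpa1, the best known repressor of exon inclusion, was positive on every array but uneven, at 0.66, 1.10 and 0.09 after 1 week and at 0.43, 0.01 and 0.10 after 6 weeks. Its paired spots differed by up to 1.60, and processed copies of this gene in the genome may share its signal. Hnrnpab, a relative of the A group, was at 1.07 and 1.02 on 1-week arrays 1 and 3 but at -0.03 on the second. Hnrnpl, which binds CA repeats, had the lowest 1-week mean of the family, -0.63 ± 0.37. That mean came from -1.72 on the dye-reversed array, against -0.10 and -0.06 on the other 2, and its spots differed by up to 3.40. Hnrnpll, its close relative known for CD45 splicing in T cells, stayed between -0.12 and 0.01 on the 1-week arrays. Agreeing spots were found for 8 hnRNP genes, 7 of these with a positive 1-week mean, with a median of 0.76. Their 1-week means ran from -0.06 for Hnrnpll to 1.48 for Hnrnpm, so the spread was wide there too.

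**Figure D2:**
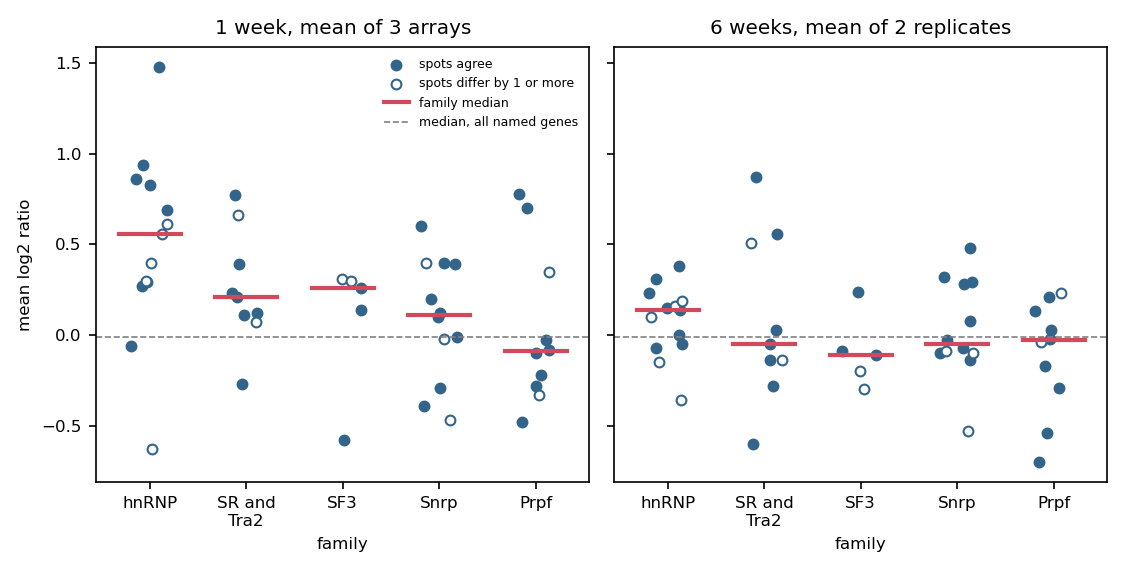
Mean log2 ratio of each gene (points) by family after 1 week (left, mean of 3 arrays) and 6 weeks (right, mean of 2 replicates), with open points for genes whose spots differed by 1 or more. Red bars are family medians (0.56 for hnRNP at 1 week, 0.14 at 6 weeks) and the dashed line is the median of all named genes.

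Of the 49 genes, 16 were positive on all 3 1-week arrays, beside 15.4% of all named genes, and 6 of these 16 were hnRNP genes. Negative values on all 3 were found for 7, beside 15.6%. The 1-week arrays were more strongly correlated over these genes than over genes in general. Across the 49 genes the Pearson correlations between pairs of 1-week arrays were 0.420, 0.485 and 0.502, whereas across all named genes they were 0.0719, 0.103 and 0.148. Among agreeing spots the values were 0.507, 0.609 and 0.678 over the 35 genes, beside 0.184, 0.231 and 0.387 over 5786 genes. Genes are not independent replicates, and the arrays may share control RNA. The 1-week dye-reversed array correlated positively with both others in its deposited sign. The 6-week dye reversal did not do so with its own swap partner, at -0.163 over the 49 genes and -0.0302 over all named genes, and the other 6-week pairs were at 0.0278 and 0.231 over the 49. Among agreeing spots the swap pair was at -0.174 over the 35 genes and at 0.0458 over the 5786. Had the 1-week reversal been turned together with the 6-week reversal, the hnRNP median at 1 week would have been 0.14. The mean of Hnrnpm would have been 0.62, that of Hnrnpa2b1 0.31 and that of Hnrnpu 0.14. On the arrays without dye reversal alone the hnRNP median was 0.49.

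Of the 9 SR genes, 8 had a positive 1-week mean and Srsf4 a negative one, with a median of 0.21. The median was -0.03 on the dye-reversed array, with 4 of 9 positive, and 0.21 and 0.24 on the other 2, and it was 0.08 without the second array. Srsf5, an SR protein of constitutive and alternative splicing, was at 0.92, 0.78 and 0.62 after 1 week and at 0.21, -0.47 and 0.02 after 6 weeks. All its 1-week values lay above all its 6-week values. The mean of 0.77 ± 0.15 had an adjusted p of 0.0387 by limma among agreeing spots, and leaving out any single array moved this above the threshold, to between 0.0564 and 0.164.

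Tra2b, which activates exons through GAA-rich enhancers, was at 0.41, 0.38 and 1.17 after 1 week and at 0.63, -0.17 and 0.78 after 6 weeks. Its 1-week mean was 0.66 ± 0.23, with an unadjusted p of 0.0340 by limma, and its spots differed by up to 1.22. The means at both times were positive, and on the 6-week arrays only the dye reversal was below 0. Srsf10, which turns into a general splicing repressor when it loses its phosphates, was at 0.33, 0.21 and 0.63 after 1 week and lower on every 6-week array, at 0.04, -0.12 and -0.52. Srsf1, the founding member of the family, showed no common sign at 1 week, with -0.09, 0.84 and -0.38.

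The SF3 complex was measured through 5 genes, of which 4 had a positive 1-week mean, with a median of 0.26. The median was -0.16 on the dye-reversed array, with 2 of 5 positive, and the median of the means was 0.14 without the second array and 0.09 without the third. Sf3b1, the subunit that clamps the branch point helix, was at 0.07, 0.36 and 0.35 after 1 week and at -0.26, 0.54 and 0.34 after 6 weeks. Sf3a1, a scaffold of the complex, had the highest mean of the complex, 0.31 ± 0.29, through 1.13 on the third array, against -0.16 and -0.02 on the others. Sf3b6, the small subunit that touches the branch point adenosine, went the other way on all 3 arrays, at -0.30, -0.91 and -0.54. Its mean of -0.58 ± 0.21 reached an unadjusted p of 0.0342 by limma and did not pass after adjustment. After 6 weeks it was at -0.70, -0.08 and 0.21. Sf3b3, a scaffold subunit, had the lowest 6-week mean of the complex, -0.30 ± 0.30, with -0.76 on the array against 6-week control and 0.22 and 0.12 on the others. At 1 week it was at 0.28, 0.63 and 0.00, and its spots differed by up to 1.01.

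The Snrp genes split at 1 week, 7 with a positive and 5 with a negative mean and a median of 0.11, which was 0.01 without the third array and 0.18 without the first. Among the genes of the Sm ring, which forms the core of most spliceosomal snRNPs, Snrpf had values of 0.24, 0.71 and 0.86 after 1 week and of 0.06, -0.76 and 0.15 after 6 weeks. Its 1-week mean was 0.60 ± 0.20, with an unadjusted p of 0.0274 by limma. Snrpe, which sits beside SmF in the ring, was at 0.01, 0.49 and 0.68 and had the highest 6-week mean of the group, 0.48 ± 0.29. Snrpd2 was the lowest, at -0.75, -0.70 and 0.04 after 1 week and at -0.22, -1.01 and -0.44 after 6 weeks. Its spots differed by up to 1.02, with -0.48 and 0.55 on the third 1-week array. Members of 1 ring thus had mean log ratios from -0.47 for Snrpd2 to 0.60 for Snrpf at 1 week.

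The proteins specific to the U1 and U2 particles went in both directions. Of the U1 proteins, Snrpa was positive on all 3 1-week arrays, at 0.15, 0.71 and 0.36, with spots that differed by up to 1.3. Of the U2 proteins, Snrpa1 had a mean of -0.01 ± 0.17. Snrpc, of U1, was negative on all 3 1-week arrays, at -0.46, -0.45 and -0.26, and Snrpb2, of U2, likewise, at -0.35, -0.29 and -0.24. Snrpb2 was higher on every 6-week array, at -0.15, 0.20 and 0.55. None of these reached an unadjusted p under 0.05 at 1 week. Snrp1c-ps2, which RefSeq lists as a pseudogene, was at -0.22, 0.26 and 0.56, so it did not follow Snrpc. Signal from near-identical copies could not be separated on these arrays. Snrpn, the imprinted gene of SmN, had a 1-week mean of 0.10 ± 0.22 and a 6-week mean of 0.32 ± 0.28.

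The Prpf genes had a median of -0.09 at 1 week, with 3 of 10 positive. Its sign rested on the third array, without which it was 0.11, and on the dye-reversed array it was 0.09, with 6 of 10 positive. Prpf18, a factor of the second catalytic step, was at 0.53, 0.65 and 1.18, and Prpf38b, a relative of yeast Prp38, at 0.41, 0.66 and 1.02. Their means were 0.78 ± 0.24 and 0.70 ± 0.18, with unadjusted p of 0.0191 and 0.0100 by limma. Prpf8, the core protein around the catalytic centre, was negative at -0.90, -0.28 and -0.27. Its mean of -0.48 ± 0.19 had an unadjusted p of 0.0490 by limma, was -0.28 without the dye-reversed array, and missed 0.05 when any single array was left out. It also missed 0.05 with the 6-week reversal turned, under the other normalizations and in the robust and unmoderated tests. With a dye term and among agreeing spots it stayed under 0.05. The remaining members of the tri-snRNP, Prpf3, Prpf4, Prpf6 and Prpf31, had means between -0.33 and 0.35.

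**Figure D3:**
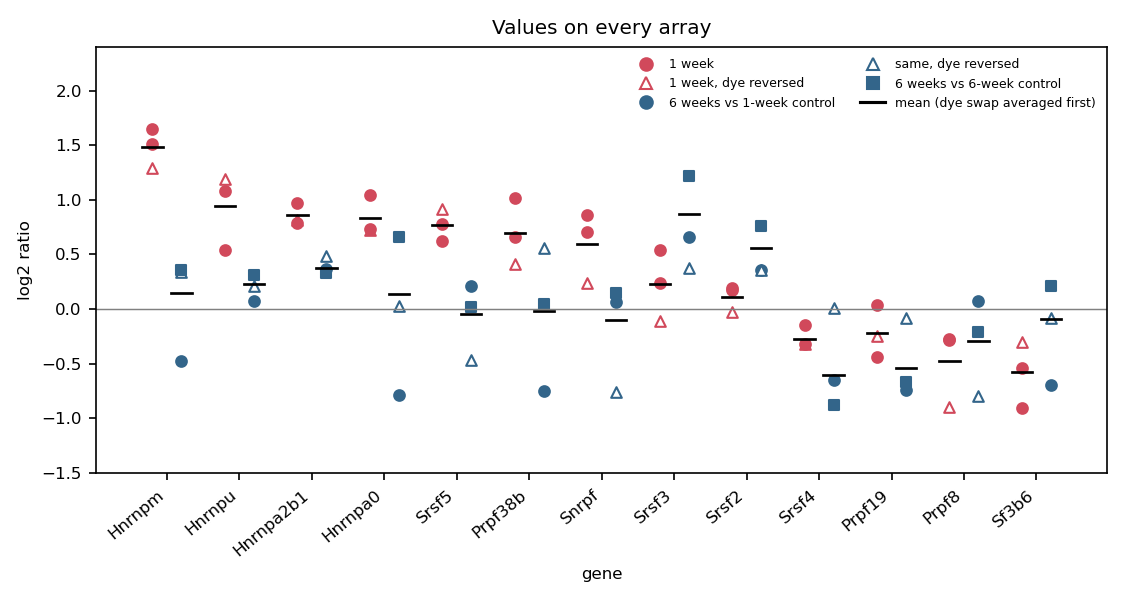
Log2 ratio (vertical axis) of 13 genes on each of the 3 1-week arrays (red) and 3 6-week arrays (blue), with triangles for dye-reversed arrays, a square for the 6-week control and black bars for the means. Hnrnpm, Hnrnpu, Hnrnpa2b1, Hnrnpa0, Srsf5 and Snrpf are higher on every 1-week than on any 6-week array, and Srsf2 is lower.

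After 6 weeks the 49 genes were split between the signs. The median of the 49 genes was -0.03, with 23 positive and 26 negative, beside -0.01 over all named genes. Of the SF3 genes 4 of 5 were negative. The hnRNP median was 0.14, with 9 of 13 positive, and became 0.03 with the 6-week dye reversal turned. An unadjusted p under 0.05 by limma was reached by 4 of the 49 genes, all SR or Prpf genes, beside 4.12% of all tests. Of the 4, 2 were positive and 2 negative, beside 2.18% and 1.94% of all tests. Limma called 0 of the 49 after adjustment, beside 0% of all tests, and 0 of the 35 with agreeing spots, beside 0.207% in that fit.

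Hnrnpk, which binds C-rich stretches, had the lowest 6-week mean of the hnRNP family, -0.36 ± 0.42, at -0.73, -0.00 and -0.35. At 1 week it was at 0.81, -0.72 and 0.80, and its spots differed by up to 2.03. Hnrnpa2b1 had the highest 6-week mean, 0.38 ± 0.18, and did not pass.

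Among the SR genes the 6-week means spread in both directions. Srsf3, the smallest SR protein and a regulator of export, was at 0.66, 0.38 and 1.22 on 6-week arrays 1 to 3, against -0.11, 0.54 and 0.24 at 1 week. Its 6-week mean was 0.87 ± 0.27, with an unadjusted p of 0.0209 by limma, and 0.68 with the dye reversal turned. Srsf4, a larger SR protein, was at -0.65, 0.01 and -0.88, with a mean of -0.60 ± 0.22, and it was also negative at 1 week, at -0.32, -0.15 and -0.32. Prpf19, the ubiquitin ligase that activates the spliceosome, was at -0.74, -0.08 and -0.67, with a mean of -0.54 ± 0.21. For both genes the dye-reversed array lay nearest to 0. Prpf6, a bridge of the tri-snRNP, had the lowest mean, -0.70 ± 0.37, with -1.29 on the array against 6-week control and 0.21 and -0.43 on the dye swap against 1-week control. Prpf3, another tri-snRNP protein, had the highest mean of the Prpf genes, 0.23 ± 0.26, from discordant values of -1.04, 0.89 and 0.53, and its spots differed by up to 1.88. Without the array against 6-week control, 0 of the 49 genes reached an unadjusted p under 0.05.

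Srsf2, a marker of nuclear speckles, was measured by 3 probes, each in paired spots, and they did not move together. Averaged over its 6 spots it was at 0.36, 0.36 and 0.76 after 6 weeks and at -0.03, 0.17 and 0.19 after 1 week. Its 6-week mean was 0.56 ± 0.20, with an unadjusted p of 0.0352 by limma. On the first 6-week array the first probe averaged 0.48, the second -0.66 and the third 1.25. On the array against 6-week control the same probes averaged 0.71, 1.59 and -0.01. After 1 week the first probe was below 0 on all 3 arrays, at -0.26, -0.16 and -0.24, and the second above 0 on all 3, at 0.29, 0.40 and 0.51. The gene's mean is therefore an average over probes of unlike behaviour, and which transcripts each probe detects was not given.

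**Figure D4:**
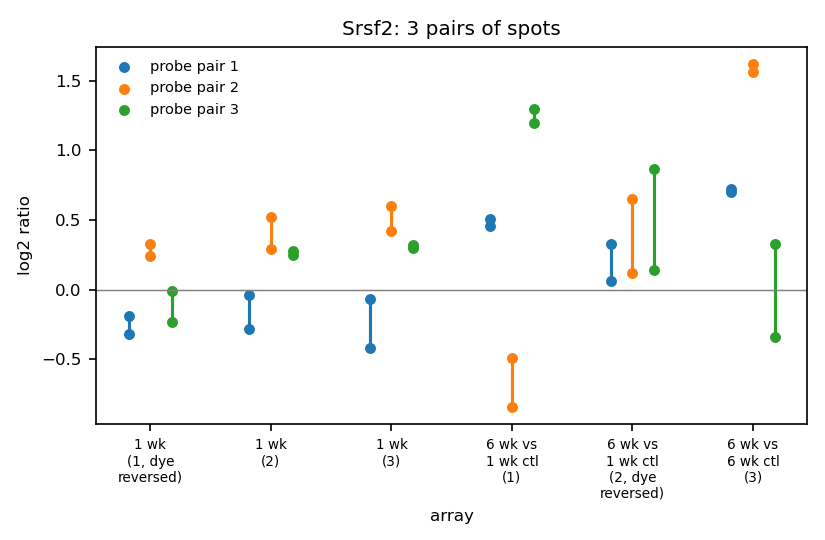
Log2 ratio of Srsf2 on each array (horizontal axis) for 3 probes (colours), each drawn as 2 spots joined by a line. Spots of 1 probe mostly lie close together, while the probes lie apart, from -0.66 to 1.25 on the first 6-week array.

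The difference between exposure times was mostly negative for these genes. Of the 49, 33 had a lower mean at 6 weeks than at 1 week and 16 a higher one, with a median difference of -0.26, beside 0.00 over all named genes, of which 50.2% had a higher mean at 6 weeks. The hnRNP median difference was -0.46, with 11 of 13 negative. No overlap between times, with 1-week values higher, was found for 7 of the 49 genes, beside 5.87% of all named genes. They were Hnrnpm, Hnrnpa2b1, Hnrnpu, Hnrnpa0, Srsf5, Srsf10 and Snrpf. With 1-week values lower it was found for Srsf2 and Snrpb2, beside 4.81%. Limma's test of the difference gave an unadjusted p under 0.05 for 3 of the 49 genes, Hnrnpm, Srsf5 and Prpf38b, all 3 negative, beside 3.55% of all tests in either direction and 1.83% negative, and called 0 after adjustment, beside 0%. Among agreeing spots 7 of 35 reached it, beside 6.69%.

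Averaged over both times, 13 of the 49 genes reached an unadjusted p under 0.05 by limma, 9 positive and 4 negative, beside 6.31% of all tests, 3.2% positive and 3.12% negative. The 4 negative genes were Prpf8, Prpf19, Srsf4 and Snrpd2. Limma called 0 over all tests, beside 0%, and among agreeing spots it called Hnrnpm, at 0.81 ± 0.14, and Hnrnpa2b1, at 0.62 ± 0.12, beside 1.99% of the genes in that fit. Their adjusted p of 0.0187 and 0.0351 became 0.225 and 0.252 without the array against 6-week control, and 0.155 and 0.216 with the 6-week reversal turned. The calls also ended without the second 1-week array (0.0557 and 0.0784) or the third (0.0798 and 0.121), and that of Hnrnpm without the 6-week dye reversal (0.0710). Over all 49 genes, without the array against 6-week control the 13 genes became 2, Hnrnpa2b1 and Hnrnpm.

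Other genes of the splicing machinery, 123 measured genes outside the symbol rule, showed a weaker lean at 1 week. Of these, 71 had a positive mean, beside 48.9% of all named genes, with a median of 0.06. An unadjusted p under 0.05 by limma was reached by 12 positive and 4 negative ones, beside 3.53% and 3.12% of all tests. Among the regulatory factors, 28 of 43 were positive with a median of 0.10, among the kinases and phosphatases of SR proteins 6 of 8 with a median of 0.22, and among exon junction and export proteins 10 of 14 with a median of 0.20. The U2AF and branch point factors had a median of 0.02 over 7 genes, the further snRNP and Lsm proteins -0.03 over 29, and the catalytic step proteins -0.10 over 22.

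Mbnl1, a muscleblind splicing regulator, was at 1.06, 1.02 and 1.09 after 1 week and at 0.87, 0.81 and 1.57 after 6 weeks. All 6 values were positive, and its 1-week mean of 1.06 ± 0.19 had an adjusted p of 0.0236 by limma among agreeing spots. It missed the threshold when any 1-week array was left out, at 0.0561, 0.102 and 0.166, and with the 6-week reversal turned, at 0.104. Rbm39, an SR-related coactivator, was at 0.99, 1.10 and 0.62 after 1 week, with an adjusted p of 0.0449, and at 0.07, -0.14 and 0.62 after 6 weeks. Leaving out any single array gave it 0.0557 to 0.195. These were the 2 genes called at 1 week among 69 with agreeing spots, beside 1.76% of the genes in that fit. Rsrc2, another SR-related protein, rested on 0.57, 1.07 and 1.88, and Celf2, an RNA-binding regulator, on 1.04, 0.31 and 0.88, and neither passed. Raly, an hnRNP C relative outside the symbol rule, was negative on all 6 arrays, with means of -0.81 ± 0.21 at 1 week and -0.94 ± 0.26 at 6 weeks. The latter was -0.02 with the 6-week reversal turned. For the mean of both times, limma called 2 of the 69 genes with agreeing spots, beside 1.99% in that fit. They were Mbnl1, at 1.13 with an adjusted p of 0.00753, and Raly, at -0.88 with 0.0259. With the 6-week reversal turned their adjusted p by limma were 0.168 and 0.471. Raly also missed the threshold without the third 1-week array, at 0.0997, and on the 4 arrays without dye reversal, at 0.0969. Mbnl1 stayed under it in these 2 settings, at 0.0441 and 0.0314. Without the array against 6-week control the mean was 0.95 for Mbnl1 and -1.0 for Raly. Cdc40, Puf60 and Lsm4 were negative on all 3 1-week arrays, with means of -0.55 ± 0.16, -0.50 ± 0.17 and -0.43 ± 0.15, and Puf60, a partner of U2AF, and Lsm4 were also negative on all 6-week arrays, with means of -0.45 ± 0.21 and -0.15 ± 0.18. Spots differed by up to 1.56 for Puf60 and 3.04 for Lsm4. Ybx3, a cold shock domain protein, was positive on all 6 arrays, with means of 0.53 ± 0.15 and 0.45 ± 0.18. Wbp4, Rbm22 and Taf15 had 6-week means of 0.50 ± 0.19, -0.86 ± 0.24 and -0.75 ± 0.26, and at 1 week of -0.22 ± 0.15, 0.10 ± 0.20 and 0.40 ± 0.21. Spots differed by up to 1.93 for Rbm22 and 2.5 for Taf15. None of these passed over all tests. Clk1, a kinase that phosphorylates SR proteins, had the smaller mean at 1 week, 0.33 ± 0.18, and 0.82 ± 0.22 at 6 weeks, with spots that differed by up to 1.43.

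Single markers of some cell types had ratios away from 0, while at 1 week most medians of the marker lists lay close to it. Of the fibroblast markers, 9 were measured, at 1 week from -1.33 for Dpt to 0.32 for Col1a1, with a median of -0.49. Of these, 4 were negative at an unadjusted p under 0.05 by limma, beside 3.12% of all tests. The endothelial markers had a median of -0.06 over 15 genes, 2 positive and 4 negative by the same measure, beside 3.53% and 3.12%. Leukocyte, smooth muscle, epithelial, red cell and adipocyte markers had medians between -0.09 and 0.00. Without the dye-reversed array the fibroblast median was -0.25. After 6 weeks the endothelial median was -0.26, with Cldn5 at -0.90 and Clec14a at 1.09, and became 0.11 with the 6-week reversal turned. The red cell median was -0.38 over 4 genes, and 0.06 with that reversal turned, while the fibroblast median was -0.13. The smooth muscle and pericyte median was 0.06 over 9 genes, 5 positive and 4 negative, from -0.42 for Mylk to 1.14 for Acta2. The medians of the other lists lay between -0.14 and 0.03. Whether these marker ratios bear on the hnRNP and SR ratios was not tested.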

How the data were processed

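The deposited table gives 1 log2 ratio per feature and array for 32448 features. The scanner, background correction, normalization and dye assignment are not given in the sources used here. From the values, the deposited log2 ratios are folds in whole hundredths, within 0.02 of a hundredth, for 99.99% to 100% of values, and each array's median was within 3e-07 of 0. A probe table gave 24344 features 1 symbol, and 98 several. Entrez identifiers matched 24076 to RefSeq (GRCm38.p6), with 0 symbols changed. Each array was centred on its median and spots were averaged per gene. The 11138 genes and 8104 unnamed features gave 19242 tests. A linear model with 1 term per exposure time was run in limma 3.58.1 (R 4.3.3, lmFit, then eBayes). The fit of all tests had 3 residual and 2.39 prior degrees of freedom. Tests were two-sided, with Benjamini-Hochberg adjustment at 0.05. The code was tested on simulated data.

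Genes printed with values had an unadjusted p under 0.05, 1 sign on all 6 arrays or the highest or lowest mean of their family. Hnrnpab, Hnrnpll, Srsf1, Srsf10, Snrpa, Snrpa1, Snrpc, Snrpb2, Snrpn and Snrp1c-ps2 were added after their values were seen. Other splicing genes were ranked by p. Members, lists and the restriction to agreeing spots were chosen with earlier results of these data known. Earlier work turned the 6-week dye reversal on a correlation near 0. Here the deposited sign was kept, and turning was an alternative, as were a dye term, other normalizations, other variance models and leaving out arrays.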

Additional observations from a re-analysis of the deposited data

Results flagged for a closer look

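The response of 3 genes differed between exposure times before adjustment in limma's test of the difference, and none passed after it. For Hnrnpm the 6-week minus 1-week difference was -1.34 ± 0.27, with a limma p of 0.00368 before and 0.951 after adjustment, and all 3 1-week arrays were above all 3 6-week arrays. For Srsf5 it was -0.83 ± 0.24, with a limma p of 0.0171 before and 0.951 after adjustment, again without overlap between times. For Prpf38b it was -0.72 ± 0.28, with a limma p of 0.0487 before and 0.951 after adjustment, and the arrays overlapped. The controls of the 6-week arrays differed in exposure time, and whether arrays share control RNA is not given in the sources used here.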

How the results depend on the processing

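The sign of the dye-reversed arrays limits these results most. With both reversals turned, the genes at an unadjusted p under 0.05 by limma numbered 2 of 49 at 1 week (12 as deposited), 0 at 6 weeks (4), 0 for the difference (3) and 1 for the mean of both times (13); Prpf8 at 1 week became 0.11 and the difference of Srsf5 became 0.02, both reversed in sign. With the 6-week reversal turned alone, 1 reached it at 6 weeks. A dye term gave 1 at 6 weeks and 6 for the mean, and the test without moderation 7 at 1 week and 8 for the mean. Among agreeing spots the difference reached 7 genes, and the calls after adjustment were 4 at 1 week and 2 for the mean, against 0 over all tests. Those 4 became 0 with both reversals turned, beside 0% of the genes in that fit. They also became 0 on the 4 arrays without dye reversal. Both alternatives were added after seeing the data. Leaving out each array in turn gave 8 to 11 genes at 1 week, 0 to 5 at 6 weeks, 2 to 5 for the difference, 2 to 13 for the mean and 0 to 3 calls among agreeing spots. Where a single 6-week replicate remained, it was assumed to vary like the others. Of 302 recomputed values of single genes, 214 kept direction and an unadjusted p under 0.05, 86 kept direction only and 2 reversed. For the unadjusted counts under these alternatives, the share of all tests is not given. Whether the 49 genes changed more than genes in general was therefore not tested. Causes were not tested. No paired analysis was possible because the labels give no replicate numbers. The number of arrays limits the precision.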
